A study of Mus musculus with 10 samples.

Results

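The genes described here carry, cut and take up the fats that travel in blood as lipoproteins. They are 3 apolipoproteins (Apoc1, Apoe, Apod), lipoprotein lipase with 2 of its partners (Lpl, Gpihbp1, Angptl4) and 4 receptors (Vldlr, Lrp1, Scarb1, Cd36). The platform annotation gave these 10 genes 23 of the 45101 probe sets of the array, a probe set being a group of short probes that reads 1 transcript. Apoc1 headed the choice because it had passed the test of mutant against wild type in these same arrays, and the other 9 genes were added as its pathway with results of that comparison known. The values of that comparison are therefore a description of these arrays and no independent evidence.

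Total RNA of the aorta of male mice was hybridised to Affymetrix MOE 430V2 arrays, 5 from NPAS2 mutant mice on a C57Bl/6J background and 5 from wild-type mice of strain C57Bl/6. The strain labels thus differ along with the genotype, and any difference of strain cannot be told apart from the mutation. NPAS2 is a transcription factor of the circadian clock and a paralogue of CLOCK. All mice had at least 2 weeks of 12 h light and 12 h dark, then at least 30 h of constant darkness, and were killed at zeitgeber time 14 h. The sources used here do not state the kind of Npas2 mutation, the age of the mice or whether each array held the RNA of a separate mouse. The p-values therefore measure only the spread between these arrays, part of which may be technical.

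Triglyceride in blood is carried in chylomicrons and very low density lipoproteins. Lipoprotein lipase, made by fat and muscle cells, is carried by GPIHBP1 to the luminal face of capillary endothelium, where it frees fatty acids from these particles, and ANGPTL4 and apolipoprotein C-I inhibit it. The freed fatty acids enter cells with the help of CD36, and the remnants, marked by apolipoprotein E, are bound by receptors such as LRP1 and the VLDL receptor. Brown and white fat lie around the mouse aorta, so an aortic sample can hold adipocytes as well as smooth muscle, endothelium, fibroblasts and macrophages. In RNA from whole tissue, fewer cells of a type and less RNA per cell cannot be told apart.

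Apoc1 was higher in the mutant aorta and both probe sets of Lpl lay higher on every mutant array than on any wild-type array, while Apoe, Apod, the receptors and the lipase partners Gpihbp1 and Angptl4 overlapped between the groups. Of the 23 probe sets, 21 were bright enough to test, and 1, that of Apoc1, passed a limma adjusted p of 0.05, where 0.215% of all 22340 tested probe sets did, 0.0940% with a higher and 0.121% with a lower level in the mutant. The groups did not overlap on 3 of the 21, all higher in the mutant, where that held for 4.01% of all tested probe sets, 1.50% higher and 2.50% lower. At an unadjusted limma p of 0.05 there were 5 of 21, against 15.3% of all. The mean was higher in the mutant on 15 of the 21 and lower on 6, with a median log2 change of 0.04, whereas 42.4% of all tested probe sets had a higher mean and their median was -0.03. Centring each array on its median changed the split of the 21 to 12 higher and 9 lower. All changes are mutant minus wild type on the log2 scale of the deposited values. Nothing is read from these counts, since the genes were chosen on this comparison.

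**Figure D1:**
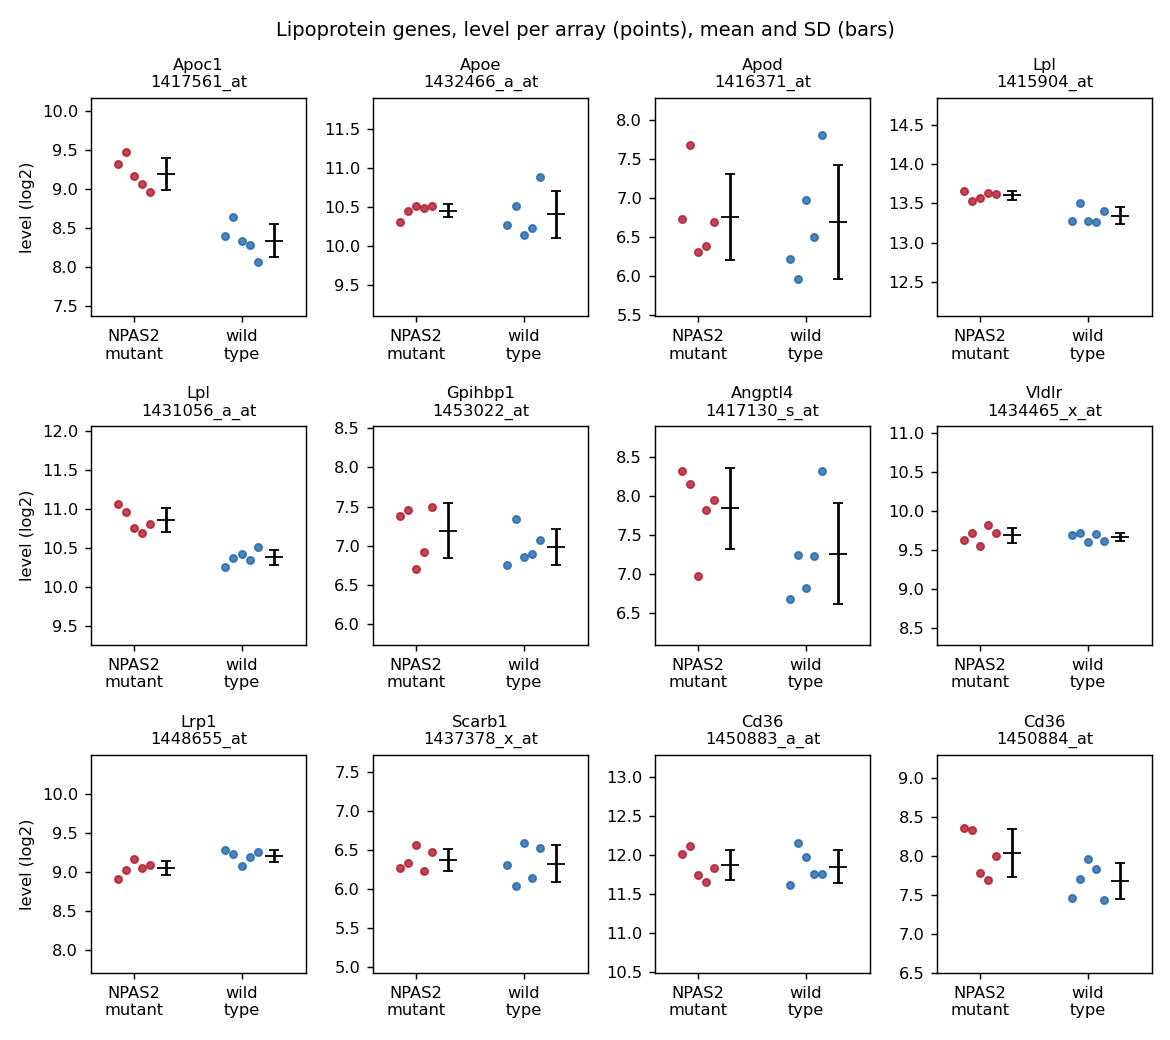
Level on each array (log2, vertical axis) of the 10 genes on 12 probe sets, with NPAS2 mutant arrays (red) left of wild-type arrays (blue) and bars for mean and SD (n = 5 each). The groups separate for Apoc1 and both Lpl probe sets and overlap on the other 9.

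Among the apolipoproteins, Apoc1 (probe set 1417561_at) stood apart. Its log2 level was 9.32, 9.47, 9.16, 9.07 and 8.96 on the mutant arrays F12, F13, F18, F19 and F20, against 8.40, 8.64, 8.33, 8.28 and 8.06 on the wild-type arrays F11, F14_2, F15, F16 and F17. The lowest mutant array was thus above the highest wild-type array. The group means were 9.20 ± 0.20 in the mutant and 8.34 ± 0.21 in wild type (SD, n = 5 each), a 1.81-fold difference with a 95% interval of 0.59 to 1.12 for the log2 change. By p it was number 16 of the 22340 tested probe sets. That call was lost in 8 of the 10 fits that left out a single array, with changes from 0.78 to 0.93, and it held without wild-type F14_2 and without mutant F20.

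Apoe, the ligand by which remnants are recognised, lies next to Apoc1 on mouse chromosome 7. It had log2 levels of 10.30, 10.44, 10.51, 10.48 and 10.51 on the mutant arrays, against 10.27, 10.51, 10.14, 10.23 and 10.88 on the wild-type arrays. The mutant arrays lay inside the range of the wild-type arrays. The log2 change of Apoe was 0.04 ± 0.13 (SE), with a 95% interval of -0.24 to 0.33. With the mean of brown fat markers as a covariate it was 0.57 ± 0.17 (SE, limma adjusted p = 0.510), against 0.44 ± 0.19 for Apoc1 in the same fit. That covariate does not overlap between the groups, so the fit has little to separate group from covariate. Nothing is read from it on the contrast between these neighbours. On the other side of Apoc1 follow Apoc4 and then Apoc2, the gene of the apolipoprotein that activates lipoprotein lipase. Both were too dim to test, with Apoc4 between 2.25 and 2.29 in the mutant and between 2.24 and 2.28 in wild type, and Apoc2 between 2.50 and 2.55 in the mutant and between 2.49 and 2.53 in wild type.

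Apod encodes a lipocalin that binds arachidonic acid and other small lipids, and differs in descent from apolipoproteins C-I and E. On probe set 1416371_at it had 6.74, 7.69, 6.31, 6.38 and 6.70 on the mutant arrays, against 6.23, 5.96, 6.98, 6.50 and 7.81 on the wild-type arrays. A single array in each group, mutant F13 and wild-type F17, stood highest, and the groups overlapped across nearly their whole range. The log2 change of Apod was 0.07 with a wide 95% interval of -0.72 to 0.85, which holds differences of either sign. Its other probe set, 1444564_at, was too dim to test, at 2.26 ± 0.03 in the mutant and 2.31 ± 0.19 in wild type (SD, n = 5 each).

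Lipoprotein lipase was read by 2 probe sets. On 1431056_a_at the log2 level of Lpl was 11.06, 10.96, 10.75, 10.69 and 10.81 on the mutant arrays, against 10.25, 10.38, 10.43, 10.34 and 10.51 on the wild-type arrays. On the brighter 1415904_at it was 13.66, 13.53, 13.57, 13.63 and 13.62 on the mutant arrays, against 13.28, 13.50, 13.28, 13.26 and 13.41 on the wild-type arrays. On both the 5 mutant arrays lay above the 5 wild-type arrays, and on 1415904_at the nearest arrays of the groups, mutant F13 and wild-type F14_2, were almost equal. The log2 changes of Lpl were 0.47 ± 0.08 (SE, limma adjusted p = 0.0535) on 1431056_a_at and 0.26 ± 0.06 (SE, limma adjusted p = 0.122) on 1415904_at, 1.39-fold and 1.20-fold, and neither passed. For 1431056_a_at the call depended on the setting. Its limma adjusted p was 0.0253 with only probe sets above the 75th percentile, 0.0431 after quantile normalisation and 0.0332 with a variance trend, but 0.0949 with no filter, 0.0618 after median centring, 0.0516 with array weights and 0.113 by ordinary one-way analysis. Over all alternatives it lay between 0.0226 and 0.647. The levels of 1415904_at are near the top of the array's range, whose highest value was 14.74.

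Gpihbp1, the endothelial carrier of the lipase, had log2 levels of 7.38, 7.45, 6.70, 6.92 and 7.50 on the mutant arrays, against 6.75, 7.34, 6.86, 6.89 and 7.08 on the wild-type arrays. The mutant arrays held both the highest and the lowest level of Gpihbp1, and its change was 0.21 with a 95% interval of -0.17 to 0.58. Angptl4, a secreted inhibitor of the lipase and a known target of PPAR nuclear receptors, had 8.32, 8.15, 6.97, 7.82 and 7.95 on the mutant arrays, against 6.68, 7.24, 6.82, 7.23 and 8.32 on the wild-type arrays (1417130_s_at). Of the 5 mutant arrays, 4 were above the wild-type mean, but wild-type F17 was as high as the highest of them. The change of Angptl4 was 0.58 ± 0.32 (SE, limma adjusted p = 0.404), and 0.85 without wild-type F17. Its second probe set, 1453410_at, was too dim to test, between 2.89 and 2.97 in the mutant and between 2.85 and 2.93 in wild type.

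**Figure D2:**
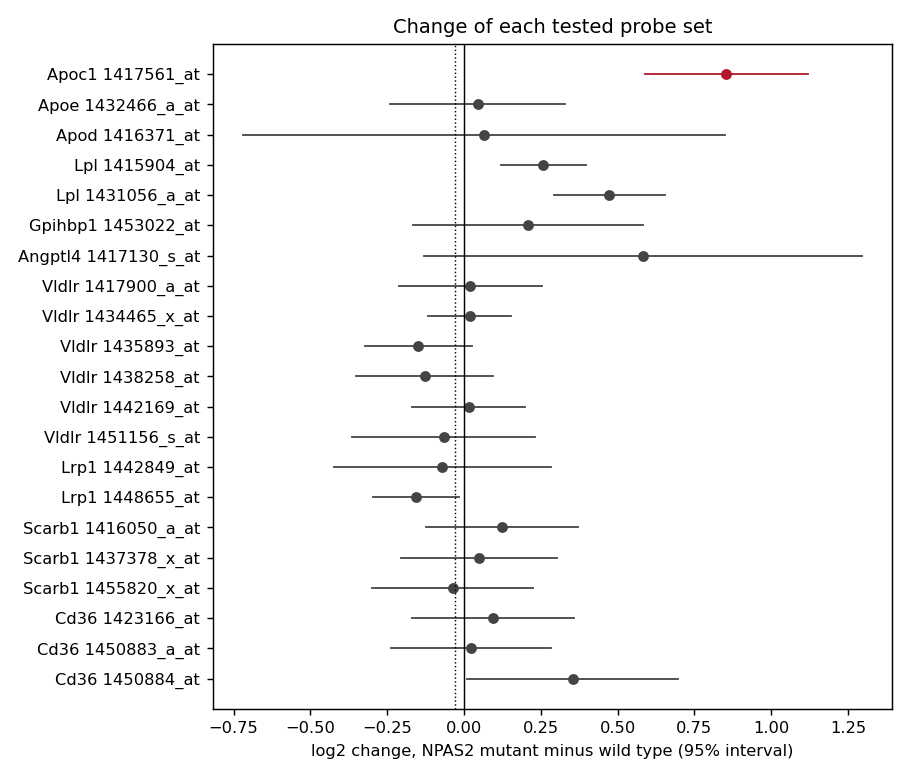
Log2 change, NPAS2 mutant minus wild type (horizontal axis), of the 21 tested probe sets, with the 95% interval of the limma fit (n = 5 arrays a group). Red marks the probe set that passed, Apoc1 at 0.85, and the dotted line the median of all tested probe sets at -0.03. The intervals of Apoc1, both Lpl probe sets, Cd36 1450884_at and Lrp1 1448655_at do not cross 0.

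The receptors of the LDL receptor family showed no called difference. Lrp1, a large endocytic receptor for remnants and many other ligands, had log2 levels of 8.91, 9.02, 9.15, 9.05 and 9.09 on the mutant arrays, against 9.27, 9.23, 9.07, 9.18 and 9.25 on the wild-type arrays (1448655_at). All 5 mutant arrays were below the wild-type mean, and wild-type F15 lay among them. The change of this Lrp1 probe set was -0.16 ± 0.06 (SE, limma adjusted p = 0.273). The dimmer 1442849_at had a change of -0.07 with a wider interval, -0.42 to 0.28. Vldlr, the receptor of apolipoprotein E-rich particles in fat, muscle and heart, was read by 6 probe sets. Their changes ran from -0.15 (1435893_at, 95% interval -0.32 to 0.02) to 0.02 (1417900_a_at), with adjusted p values between 0.381 and 0.941. On the brightest of them, 1434465_x_at, Vldlr had 9.63, 9.72, 9.55, 9.81 and 9.71 on the mutant arrays, against 9.69, 9.72, 9.59, 9.71 and 9.61 on the wild-type arrays. The groups overlapped, with the mutant arrays the more spread, and the 95% interval of the change, -0.12 to 0.15, was the narrowest among the 6.

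Scarb1 encodes the receptor that takes cholesteryl ester from high-density lipoprotein. Its 3 probe sets had changes of 0.12, 0.05 and -0.04, with limma adjusted p values between 0.598 and 0.898, so that they did not share a direction. On the brightest of them, 1437378_x_at, Scarb1 had 6.27, 6.33, 6.56, 6.23 and 6.48 on the mutant arrays, against 6.31, 6.05, 6.60, 6.15 and 6.53 on the wild-type arrays, and every mutant array lay within the wild-type range.

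Cd36, a fatty acid translocase of endothelium, fat and macrophages, was read by 3 probe sets that differed in the size of the change. On the brightest, 1450883_a_at, Cd36 had 12.01, 12.11, 11.74, 11.65 and 11.84 on the mutant arrays, against 11.61, 12.15, 11.97, 11.75 and 11.76 on the wild-type arrays. These overlapped throughout, with a change of 0.02 (95% interval -0.24 to 0.28), and 1423166_at had one of 0.09. On the dimmest, 1450884_at, Cd36 had 8.36, 8.34, 7.78, 7.70 and 7.99 on the mutant arrays, against 7.45, 7.71, 7.96, 7.84 and 7.43 on the wild-type arrays. All 5 mutant arrays were above the wild-type mean on that probe set, but 2 of them were below the highest wild-type arrays, and the change was 0.35 ± 0.16 (SE, limma adjusted p = 0.310). Which part of the transcript each probe set reads was not used here.

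Other genes of lipoprotein metabolism were followed in 6 lists. Of their 75 tested genes, each with its brightest tested probe set, 0 passed the limma test and 0 the ordinary one-way analysis. An unadjusted limma p under 0.05 was found for 11 of the 75, near the share of all tested probe sets, 15.3%. The mutant mean was the higher one in 37 and the lower one in 38, or 32 and 43 after median centring. Of all tested probe sets 42.4% had a higher mean before that centring. Among other apolipoproteins 21 of the 24 listed had a probe set, and 6 of the 21 were bright enough to test. Apoa1, made by liver and gut, was too dim, between 2.55 and 2.58 in the mutant and between 2.51 and 2.57 in wild type. The 2 largest changes in that list were those of Apool (0.38 ± 0.10, SE, limma adjusted p = 0.125) and Apoo (0.36 ± 0.22), whose proteins are known from the mitochondrial inner membrane. Among the 15 tested genes of lipase maturation and control, Angptl8, a further inhibitor of the lipase pathway, had a change of -0.30 and Pnpla2, the triglyceride lipase inside fat cells, one of 0.27 (limma adjusted p = 0.707 and 0.345).

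The LDL receptor family and its adaptors had a lower mean in the mutant for 12 of 13 tested genes, with a median change of -0.10. Of the 13, 1 had an unadjusted limma p under 0.05. After quantile normalisation 10 of 13 were lower and 0 had such a p. After median centring 12 of 13 were lower and 4 had such a p, where 14121 of all 22340 tested probe sets were lower. Lrp12 (-0.36) and Sorl1 (-0.22) had the largest changes, with limma adjusted p values of 0.408 and 0.340. Of 11 scavenger receptors 8 had a higher mean, and Scarf2, at -0.33 (limma adjusted p = 0.214), the largest change. Scarb2, a lysosomal membrane protein of the Cd36 family, had -0.24 on its brighter probe set (1454704_at, limma adjusted p = 0.286) but was called higher on the dimmer one (1460235_at, 0.37, limma adjusted p = 0.0306), a disagreement noted after its values were seen. Of the 14 sterol efflux and nuclear receptor genes the largest changes were in Nr1h3, which encodes the sterol sensor LXR alpha (0.44 ± 0.13, SE, limma adjusted p = 0.176), and Ppara (-0.20, limma adjusted p = 0.769). Of the 16 genes of fatty acid uptake and binding 13 had a higher mean, with a median change of 0.10, also 13 after quantile normalisation and after median centring. Fabp3, a fatty acid binding protein of oxidative muscle and brown fat, had 0.87 ± 0.31 (SE, limma adjusted p = 0.229) and Slc27a2, a very long chain acyl-CoA synthetase that also stands among the brown fat markers, 0.73 ± 0.17 (SE, limma adjusted p = 0.121). Slc27a2 passed in 1 fit, that without wild-type F14_2.

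The cell types that make these proteins were followed by marker lists that hold none of the 10 genes. Smooth muscle genes, which define the wall of the aorta, were bright in both groups, Myh11 at 13.22 ± 0.08 in the mutant and 13.40 ± 0.09 in wild type, with no overlap, and Acta2 at 14.38 ± 0.06 in the mutant and 14.42 ± 0.10 in wild type (SD, n = 5 each). The mean of the 8 smooth muscle markers lay between 10.99 and 11.31 in the mutant and between 11.12 and 11.41 in wild type. It includes Des, the 1 marker with a higher mean in the mutant (0.48). Des was highest, at 8.41, on mutant F12, the array with the highest skeletal muscle mean. Of these markers 7 had a lower mean in the mutant, with a median change of -0.17. An unadjusted limma p under 0.05, which 15.3% of all tested probe sets had, was found for 4 (Myh11 -0.18, Cnn1 -0.26, Smtn -0.33 and Lmod1 -0.26), while 0 passed after adjustment. The part of smooth muscle content in the differences of the 10 genes was not tested. The mean of the 10 tested brown fat markers lay between 8.81 and 9.35 on the mutant arrays and between 7.99 and 8.59 on the wild-type arrays, with no overlap, and 9 of the 10 had a higher mean in the mutant. At an unadjusted limma p under 0.05 there were 7 of the 10, and 0 passed after adjustment. The largest change was that of Elovl3 (2.57, with no overlap), and the 1 marker with a lower mean was Prdm16 (-0.27). Ucp1, the uncoupling protein of brown adipocytes, stood at 12.42 ± 0.29 in the mutant and 11.42 ± 0.52 in wild type, and Cidea, a lipid droplet protein of brown fat, at 12.46 ± 0.25 in the mutant and 12.23 ± 0.28 in wild type (SD, n = 5 each). The mean of the 8 tested general adipocyte markers overlapped, between 10.10 and 10.57 in the mutant and between 10.17 and 10.50 in wild type, with Adipoq at 13.06 ± 0.11 in the mutant and 12.95 ± 0.18 in wild type (SD, n = 5 each). That mean joins markers with changes of either sign. At an unadjusted limma p under 0.05 there were 3 of the 8, the hormone gene Lep (-0.78), Plin4 (-0.22) and the lipid droplet gene Cidec (0.28), and 0 passed after adjustment.

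Macrophages make Apoc1, Apoe and Lpl, and their marker mean lay between 6.89 and 7.37 on the mutant arrays and between 6.77 and 6.99 on the wild-type arrays, with 9 of 10 markers higher in mean in the mutant. Of these markers 4 had an unadjusted limma p under 0.05, where 15.3% of all tested probe sets did, and 0 passed after adjustment. Csf1r had 8.99 ± 0.19 in the mutant and 8.82 ± 0.13 in wild type, and Adgre1 6.05 ± 0.28 in the mutant and 5.70 ± 0.21 in wild type (SD, n = 5 each). The endothelial mean lay between 6.12 and 6.38 in the mutant and between 6.06 and 6.27 in wild type, with 7 of 10 markers higher in mean in the mutant and 2 at an unadjusted limma p under 0.05. Single endothelial markers differed in direction. Pecam1 was lower on all mutant arrays than on any wild-type array (change -0.33, limma adjusted p = 0.220), Emcn was higher on all of them (0.50, limma adjusted p = 0.164), and Cdh5 overlapped (0.07). Emcn and the smooth muscle, brown fat and adipocyte markers Cnn1, Smtn, Lmod1, Des, Elovl3, Prdm16, Lep, Plin4 and Cidec were named after their values were seen. The fibroblast mean lay between 10.79 and 11.16 in the mutant and between 10.63 and 11.05 in wild type, with changes of 0.16 for Col1a1 and -0.08 for Col1a2. The skeletal muscle mean ranged from 3.35 to 10.91 within the mutant and from 3.28 to 9.69 within wild type, with Acta1 at 9.84 ± 3.72 in the mutant and 7.89 ± 3.39 in wild type and Ckm at 7.06 ± 4.09 in the mutant and 5.62 ± 3.25 in wild type (SD, n = 5 each). The 4 tested Schwann cell markers had means between 6.29 and 7.11 in the mutant and between 6.22 and 6.84 in wild type. Of the fibroblast, skeletal muscle and Schwann cell markers 0 had an unadjusted limma p under 0.05. None of the 6 liver markers with a probe set was bright enough to test, with Alb between 2.53 and 3.24 in the mutant and between 2.44 and 2.94 in wild type and Ttr between 2.79 and 2.95 in the mutant and between 2.72 and 2.88 in wild type.

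With the brown fat mean as a covariate the change of Apoc1 was 0.44 ± 0.19 (SE) and those of Lpl were 0.39 ± 0.16 on 1431056_a_at and 0.29 ± 0.12 on 1415904_at, none of which passed. The fit then has little to separate group from covariate, because the brown fat mean itself does not overlap between the groups. With the macrophage mean as a covariate the changes were 1.11 ± 0.12 for Apoc1 and 0.53 ± 0.11 and 0.27 ± 0.09 for Lpl, larger than without it, and none passed either. The changes of Cd36 turned below 0 on all 3 probe sets with the brown fat covariate (-0.11, -0.26 and -0.22), and the part of brown fat content in these differences was not tested further. Of the 21 probe sets, 6 had a smaller and 15 a larger absolute change with that covariate. Among the larger ones were Apoe (0.57 with and 0.04 without it), Apod (0.51 with and 0.07 without it) and Angptl4 (0.93 with and 0.58 without it), and none of these passed.

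**Figure D3:**
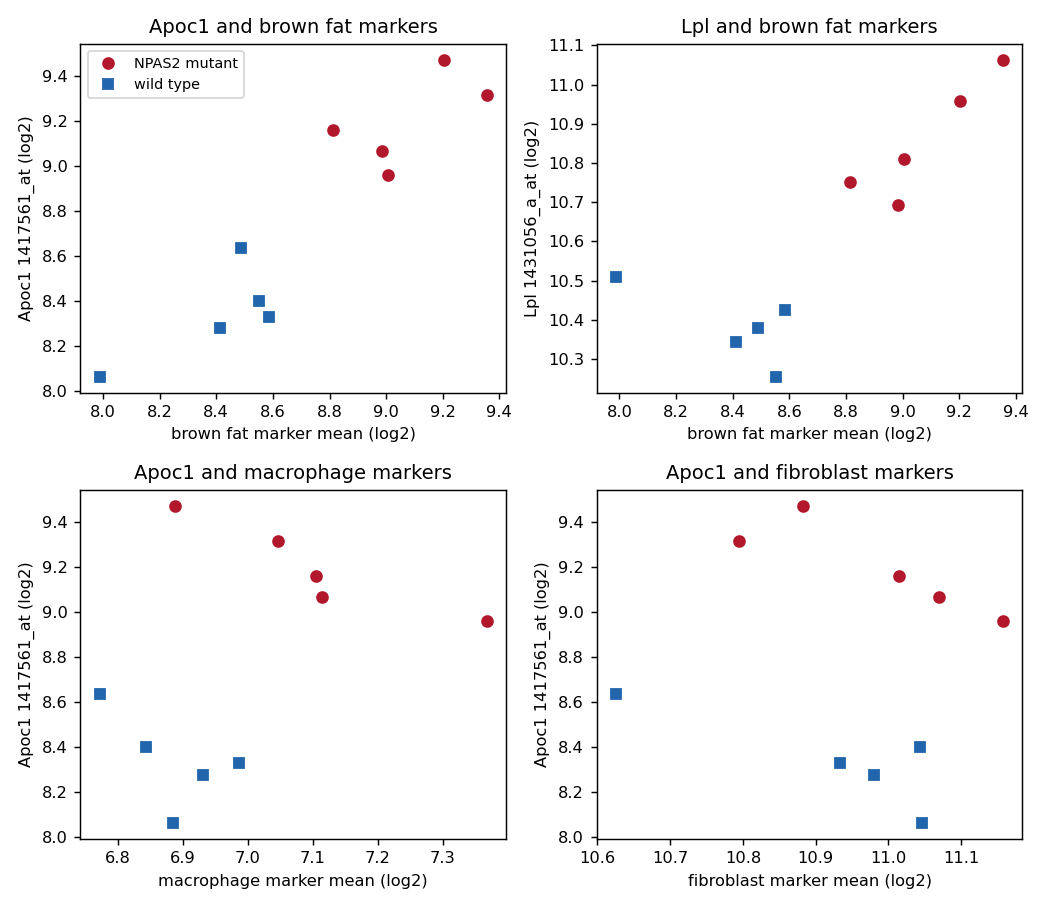
Level of Apoc1 or Lpl (log2, vertical axis) against the mean of a marker list (log2, horizontal axis) on each array, mutant in red circles and wild type in blue squares. The groups separate on both axes for brown fat, where the marker mean is 8.81 to 9.35 in the mutant and 7.99 to 8.59 in wild type, and on the vertical axis alone for macrophage and fibroblast markers.

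How the 10 genes varied between arrays of the same group was examined apart from the difference between groups, by subtracting each group's mean. The choice of genes did not use this measure. Over 10 arrays, the brightest tested probe set of each gene was set against the means of 7 marker lists, 70 pairs in all, with an exact two-sided permutation test over all 14400 orders of arrays within the groups. None of the 70 passed after Benjamini-Hochberg adjustment, the smallest adjusted exact permutation p being 0.139, and 6 had an unadjusted p under 0.05. The first 2 of these belonged to Apod with adipocyte markers (Pearson r = 0.79, exact permutation p = 0.00556, Spearman rho = 0.75, exact permutation p = 0.0109) and Apoc1 with fibroblast markers (r = -0.84, exact permutation p = 0.00722, rho = -0.85, exact permutation p = 0.00632). Without the 2 arrays whose deviations in the marker mean were farthest from the median deviation, r was 0.43 for Apod and -0.83 for Apoc1. Apoe with brown fat markers had r = -0.81 (exact permutation p = 0.00785, rho = -0.71 with exact permutation p = 0.0240), and -0.55 without the 2 farthest arrays. Cd36 with fibroblast markers had r = -0.83 (exact permutation p = 0.00792, rho = -0.67 with exact permutation p = 0.0540), and -0.71 without them.

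The other pairs at an unadjusted p under 0.05 were Apoc1 with macrophage markers (r = -0.77, exact permutation p = 0.00993, rho = -0.77 with exact permutation p = 0.0185) and Lrp1 with brown fat markers (r = -0.68, exact permutation p = 0.0480, rho = -0.66 with exact permutation p = 0.0590). Without the 2 farthest arrays, r was -0.62 for Apoc1 and -0.63 for Lrp1. Apoc1 had r = 0.68 with brown fat markers within the groups (exact permutation p = 0.0562). Lpl, whose group difference went with that of brown fat markers, had r = -0.15 with them within the groups (1415904_at, exact permutation p = 0.751). After quantile normalisation that r was 0.12, so its sign depended on the processing and nothing is read from it. The levels of this probe set are near the top of the array's range. The other Lpl probe set, which had the larger group difference, was not examined in this way. The arrays share their normalisation and are few, and these values describe 10 arrays.

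**Figure D4:**
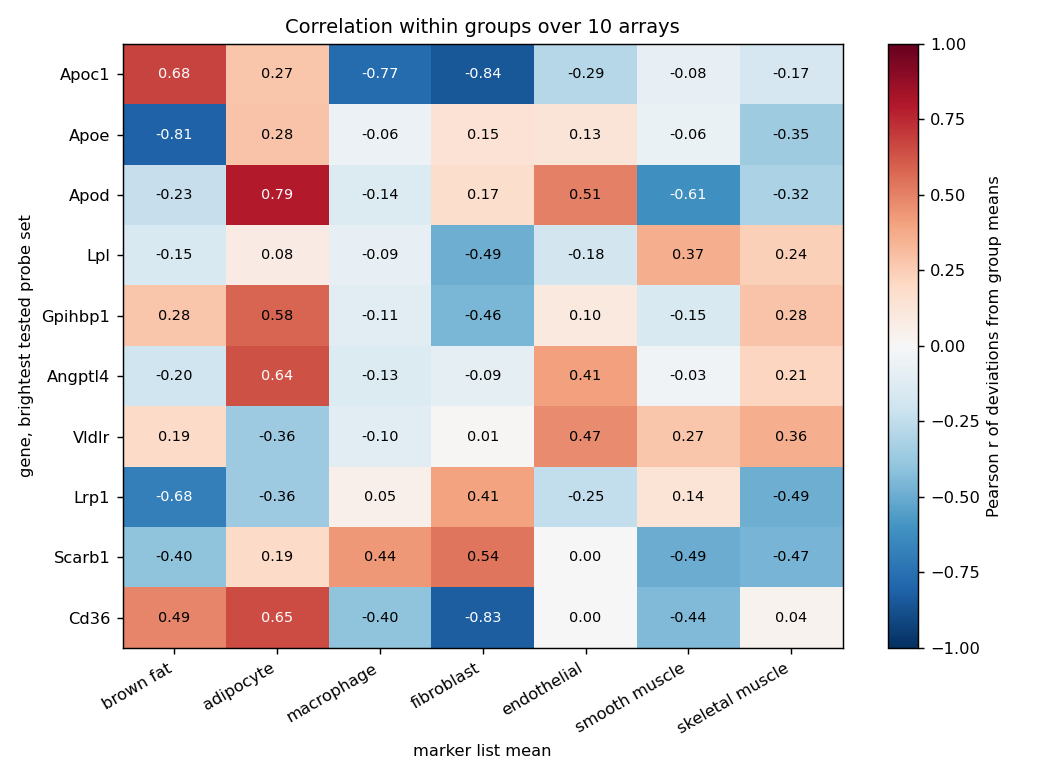
Pearson r of the deviations from the group means over 10 arrays, for each of the 10 genes (rows) and 7 marker list means (columns), red above and blue below 0. The largest positive value is Apod with adipocyte markers at 0.79 and the largest negative one Apoc1 with fibroblast markers at -0.84, and none of the 70 passed after adjustment.

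Among the genes themselves, the deviations of Cd36 went with those of Gpihbp1 (r = 0.71) and of Apoc1 (r = 0.70), and those of Vldlr ran against those of Scarb1 (r = -0.70), over the same 10 arrays and out of 45 pairs, given with no test. The 8 genes whose deviations were most like those of Apoc1 among all tested genes were Acat1, Ero1a, Camsap3, Osbpl11, Ifi27, Mrpl13, Entpd5 and Nfia, with r between 0.93 and 0.95. They were picked as the highest values of all, and so carry no test. Their own changes between the groups ran from -0.15 for Ero1a, an oxidase of the endoplasmic reticulum, to 0.38 for Ifi27, and that of Acat1, the mitochondrial acetoacetyl-CoA thiolase, was 0.24.

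NPAS2 binds DNA with BMAL1 at the E-box, whose letters are CACGTG and read the same on both strands. RefSeq promoter windows (GRCm38.p6, 300 bases around a gene's start) were at hand for 5 of the 10 genes, 8 windows in all, 3 of Apoe, 2 of Vldlr and 1 each of Cd36, Lrp1 and Apod. None of the 8 held the motif, which 7.15% of all 32851 windows did, and nothing follows for binding elsewhere in these genes.

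The arrays gave like values over all, with upper quartiles between 5.40 and 5.55, and their number limits the precision. Npas2 itself was low in both groups. On the tested 1421037_at it stood at 3.43 ± 0.03 in the mutant and 3.71 ± 0.24 in wild type (SD, n = 5 each, limma adjusted p = 0.249). All 5 mutant arrays were below the wild-type mean there, but the ranges overlapped, 3.38 to 3.47 in the mutant and 3.44 to 3.96 in wild type. On 1421036_at, too dim to test, the levels were 2.38 ± 0.08 in the mutant and 2.37 ± 0.09 in wild type. Npas2 therefore does not check the genotype labels. Skeletal muscle signal was highest on mutant F12, F19 and F20 and wild-type F16. Leaving out these 4 arrays was an alternative added after the data were seen. It kept only F13 and F18 of the mutant and F11, F14_2, F15 and F17 of wild type. The change of Apoc1 was then 0.96 ± 0.17 (SE) and that of Lpl on 1431056_a_at 0.46 ± 0.10, with 0 probe sets called in the whole table. With so few mutant arrays, nothing is read from the loss of calls.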

How the data were processed

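The authors deposited log2 expression values, 1 per probe set and array. GCRMA and MAS5 are named, per the submitters' processing notes, with no version or role, and the log2 scale was read from the range of the values, 1.10 to 14.74. No hybridisation dates were at hand, and batches were not examined.

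The deposited values were used unchanged. Symbols of the platform annotation (34958 probe sets with 1 gene, 932 with several) were updated through gene identifiers to GRCm38.p6 names for 34754. Tested were the 22340 probe sets, of 10945 genes, that exceeded the median of the array on 5 or more of the 10 arrays, with 64 controls left out. limma 3.58.1 (lmFit and eBayes, R 4.3.3) fitted mutant minus wild type. Its two-sided p-values were adjusted by Benjamini-Hochberg across the 22340, and 0.05 was the limit. Standard errors are moderated and the 95% intervals unadjusted. Fit and permutation test were tested on simulated data. The 10 genes, the lists and the covariates were chosen with earlier results of these data known.

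The text names all probe sets of the 10 genes, the 8 genes most like Apoc1, its neighbours in the genome, Npas2, the called or else 2 most changed genes of each pathway list, and the first 2 genes of each marker list where annotated. Alternatives were other filters, normalisations and variance models, leaving out probe sets that may cross-hybridise (suffix _x_at or _s_at), leaving out arrays, and marker means as covariates.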

Additional observations from a re-analysis of the deposited data

Results flagged for a closer look

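In each group of 5 arrays, the gap between the highest or lowest array and its nearest neighbour was set against the range of the group (Dixon test). Of 62 such groups of values, from the 23 probe sets and the marker list means, 4 held an array that stood apart, where chance alone gives about 3.1. Apod on the dim probe set 1444564_at had 1 high array in each group, mutant F20 at 2.32 and wild-type F17 at 2.64. Wild-type F17 was also the array with the highest Apod on the tested probe set, 7.81. The brown fat marker mean of wild-type F17, 7.99, lay below the other 4 wild-type arrays. Without that array the change of Apoc1 was 0.78. The fibroblast marker mean of wild-type F14_2, 10.63, lay below the others of its group, and the array had the highest Apoc1 of wild type, 8.64.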

How the results depend on the processing

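Apoc1 kept its direction under every alternative run, with changes from 0.44 to 1.11, but not its call. Of the probe sets of the 10 genes, 1 passed in the fit reported, against 2 with the filter at the 75th percentile, quantile normalisation, the variance trend or the adipocyte covariate (Lpl 1431056_a_at being the second), and 0 with no filter, ordinary one-way analysis, the brown fat, skeletal muscle or macrophage covariate, or without the 4 arrays of highest skeletal muscle signal. Over all tested probe sets 48 passed, against 141 with the filter at the 75th percentile, 17 with no filter, 13 by ordinary one-way analysis, 1 with the brown fat, 7 with the skeletal muscle and 0 with the macrophage covariate, and 0 without the 4 arrays. The fit without the 4 arrays kept only F13 and F18 of the mutant. Leaving out 1 array gave 9 (without wild-type F16) to 43 (without wild-type F14_2) calls in all, 0 to 1 among the 10 genes and 0 to 1 among the pathway lists; the cause was not tested, beyond fewer arrays. Signs turned with the brown fat covariate for Gpihbp1 (-0.035), Vldlr 1434465_x_at (-0.026), Lrp1 1448655_at (0.015) and Cd36 (1423166_at -0.11, 1450883_a_at -0.26, 1450884_at -0.22), and with the macrophage covariate for Vldlr 1442169_at (-0.043) and Scarb1 1437378_x_at (-0.090). Median centring turned Vldlr 1417900_a_at (-0.000296), 1434465_x_at (-0.00189) and 1442169_at (-0.00482), quantile normalisation Scarb1 1455820_x_at (0.012), and leaving out the 4 arrays Vldlr 1434465_x_at (-0.020) and 1442169_at (-0.087). Without 1 array the changes ran from -0.023 to 0.16 for Apoe, -0.16 to 0.34 for Apod, -0.18 to 0.029 for Lrp1 1442849_at and -0.037 to 0.098 for Cd36 1450883_a_at. For Vldlr they ran from -0.057 to 0.065 (1417900_a_at), -0.013 to 0.053 (1434465_x_at), -0.033 to 0.067 (1442169_at) and -0.14 to 0.040 (1451156_s_at), and for Scarb1 from -0.021 to 0.12 (1437378_x_at) and -0.099 to 0.042 (1455820_x_at). No paired analysis was possible because the groups share no replicate identifier. Apod 1444564_at and Angptl4 1453410_at were too dim for a test.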
